A study of Mus musculus with 39 samples.

Results

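The genes described here are 10 members of the BCL2 family, the proteins that set whether mitochondria release the signals of programmed cell death, read from a gene count table of 39 mouse tumours. Each member has 1 entry among the 39676 genes listed, 28827 of which were counted at least once. The members were chosen by gene family with earlier results of these data known, so their counts of changed genes below describe them and give no independent support, and which values were used in that choice was not recorded. They comprise 5 pro-survival genes (Bcl2, Bcl2l1, Mcl1, Bcl2a1b and Bcl2a1d), 3 BH3-only death genes (Bcl2l11, Bid and Bbc3) and 2 effectors (Bax and Bak1). All 10 members passed the low-count filter in each comparison and were tested there.

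Every tumour was grown under the skin of BALB/c mice, female and male animals aged 8 to 10 weeks, from AB1-HA, a mouse mesothelioma cell line that carries influenza haemagglutinin as a marker antigen. The groups were PBS (n = 10), tretinoin (all-trans retinoic acid, n = 9), immune checkpoint therapy (ICT, n = 10), which paired an anti-CTLA-4 with an anti-PD-L1 antibody, and tretinoin+ICT (n = 10). By the deposited labels, tretinoin was given as 5 doses of 5 mg/kg from day 4, ICT as 100 µg of each antibody starting on day 7, and tumours were taken on day 9. The study's text gives a different dose or number of doses for these tumours in places, so the tretinoin dose is uncertain. PBS served as the control for the antibodies and PBS with 10% DMSO as that for tretinoin, and the labels do not say which of them the PBS group received. The mice bore a tumour on each flank. The first was resected for RNA and the other was followed, which divided the tretinoin+ICT mice into 6 responders, whose tumour was cured, and 4 non-responders, so the response label describes a different tumour from the one sequenced. The samples are single tumours of 1 cell line in 1 strain, and RNA came from whole tumours, with host cells included.

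Total counts per tumour ran from 14033046 to 37951183, with a median of 18548168. Member counts ran from 135, for Bbc3 in Tretinoin replicate 9, to 20800, for Mcl1 in Tretinoin+ICT replicate 10. The first digit of the tumour names forms 8 series, 2 in each treatment group and none in more than 1 group, so treatment and name series cannot be told apart. In an earlier analysis of these data PBS replicate 4, Tretinoin replicate 3 and ICT replicates 3 and 7 stood apart in immune genes, and results are given with and without them where they matter. They were picked by values of these same data, so calls gained or lost without them are descriptive. Of 10 mesothelioma and sarcomatoid tumour genes, 7 were found in the table, and among these Upk3b and Krt19 had medians below 1 CPM (reads of a gene scaled to a common library size) in every group and Wt1 in the PBS group, whereas the summed level of the 7 was 2913 to 4873 CPM.

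BCL2 family proteins meet at the outer membrane of mitochondria. Bax and Bak1 are the effectors, which form pores in that membrane and so release cytochrome c and start caspases. Bcl2, Bcl2l1 (BCL-XL), Mcl1 and the A1 proteins encoded by the Bcl2a1 genes hold the effectors in check. The BH3-only proteins Bcl2l11 (BIM), Bid and Bbc3 (PUMA) antagonise the survival proteins or activate the effectors. A1 is made mainly in blood-derived cells, Mcl1 is needed by neutrophils and many other leukocytes, and Bcl2 keeps resting lymphocytes alive, so in a tumour the same transcripts may come from tumour and host cells. Much of the control of this family lies in protein stability and binding, which transcript counts do not show.

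The 2 Bcl2a1 members need a caution that bears on each of their values. Mice carry several near-identical Bcl2a1 genes on chromosome 9. On GRCm38 (GENCODE M21), Bcl2a1d lies on the minus strand at chr9:88723285-88731914 and Bcl2a1b on the plus strand at chr9:89199209-89207827. The transcripts of Bcl2a1b and Bcl2a1d are 99.14% identical over 817 aligned bases, and Bcl2a1a, the third copy, is 98.16% identical to Bcl2a1b and 98.78% to Bcl2a1d. Over the 817 positions aligned in all 3 transcripts, 16 differ. The stretch below is shown because it holds 5 of these positions, which are in capitals, and because reads that miss such positions cannot be assigned to 1 copy.
Bcl2a1d: agatgTctgagtACgagTtcatgTatatc
Bcl2a1b: agatgGctgagtACgagTtcatgTatatc
Bcl2a1a: agatgGctgagtCTgagCtcatgCatatc
These bases are positions 194 to 222 of the Bcl2a1d transcript and 150 to 178 of the other 2, read 5′ to 3′. Of all 100-base windows, the length of the reads, 56.82% of those in Bcl2a1b and 54.71% of those in Bcl2a1d also occur in transcripts of other genes, against 5.33% for Bax and 0.0% for the remaining 7 members. Bcl2a1b also shares 401 exon bases on its own strand with the gene model Gm29094, which was listed at 0.0 to 0.103 CPM. How the study treated reads that align to several places, or that overlap more than 1 gene, is not given in the sources used here. The low level of Gm29094 therefore does not show whether reads in the shared bases were counted. The levels of Bcl2a1b and Bcl2a1d, and any difference between them, are therefore uncertain. Fold changes of the summed counts of the copies are given beside them.

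The other members lie apart from one another, Bcl2 at chr1:106538178-106714274, Bcl2l1 at chr2:152780668-152831728, Bcl2l11 at chr2:128126038-128162547, Mcl1 at chr3:95658788-95663176, Bid at chr6:120891930-120916853, Bbc3 at chr7:16308393-16318205, Bax at chr7:45461697-45466898 and Bak1 at chr17:27019810-27029009. Exons of Bcl2, Bid and Bak1 overlap those of genes on the opposite strand, by 558 bases with D630008O14Rik, 628 bases with Bcl2l13 and 437 bases with Ggnbp1, and reads there cannot be assigned if counting ignored strand. Bax shares 192 exon bases on its own strand with RP23-218K15.5, and strand cannot assign reads there to 1 gene. Promoter windows of 300 bases from RefSeq were searched on both strands for a kappaB site, spelled GGG, any 2 bases and TTTCC, and for the retinoid receptor motif AGGTCA. The kappaB letters occur in 1 window each of Bcl2l1, Mcl1 and Bbc3, and in 1.63% of all 32817 promoters. AGGTCA occurs in 1 window of Bcl2l1 and in 16.26% of all promoters. The windows with kappaB letters, in capitals, are shown because Bcl2l1 and Mcl1 passed the test in the same comparisons below while Bbc3 passed in none.
Bcl2l1 (chr2:152830668-152830967, minus strand): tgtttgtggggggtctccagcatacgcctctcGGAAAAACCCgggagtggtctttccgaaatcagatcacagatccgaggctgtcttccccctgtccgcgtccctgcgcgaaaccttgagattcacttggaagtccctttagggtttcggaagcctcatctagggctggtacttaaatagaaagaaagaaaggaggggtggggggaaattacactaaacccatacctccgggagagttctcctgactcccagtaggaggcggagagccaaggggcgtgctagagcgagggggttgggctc
Mcl1 (chr3:95658471-95658770, plus strand): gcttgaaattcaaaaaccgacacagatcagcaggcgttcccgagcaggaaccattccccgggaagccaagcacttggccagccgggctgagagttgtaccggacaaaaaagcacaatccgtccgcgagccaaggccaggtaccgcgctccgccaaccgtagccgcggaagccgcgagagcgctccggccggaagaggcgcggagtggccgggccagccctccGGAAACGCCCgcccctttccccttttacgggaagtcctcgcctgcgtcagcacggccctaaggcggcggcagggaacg
Bbc3 (chr7:16309333-16309632, plus strand): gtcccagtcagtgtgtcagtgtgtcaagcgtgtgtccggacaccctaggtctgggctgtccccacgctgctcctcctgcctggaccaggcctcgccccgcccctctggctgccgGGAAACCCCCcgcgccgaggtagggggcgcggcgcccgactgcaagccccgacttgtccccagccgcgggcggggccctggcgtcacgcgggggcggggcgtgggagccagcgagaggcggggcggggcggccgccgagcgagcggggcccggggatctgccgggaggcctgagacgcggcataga
These are sequences of GRCm38.p6, read 5′ to 3′ on the gene's strand. A match of letters is a description of the window and not evidence of binding. The Bcl2a1 windows hold neither motif, and those of Bcl2a1b and Bcl2a1d are 98.8% identical over 250 aligned bases.

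Levels of different genes were compared per length, as CPM per kilobase of exon (mean ± SD over tumours). In PBS tumours Mcl1 was the highest member at 106 ± 7.10 (n = 10). The effectors followed, Bax at 58.1 ± 4.72 and Bak1 at 56.4 ± 4.36, and these neighbours did not differ beyond their spread. Bcl2a1d stood at 33.8 ± 14.1, Bcl2a1b at 15.8 ± 7.30, Bid at 13.1 ± 0.99 and Bcl2l1 at 11.6 ± 1.04, and in this stretch each neighbouring pair overlapped within 1 SD. Such overlaps concern the spread over tumours and ignore that the genes were read in the same tumours. Bcl2a1d exceeded Bcl2a1b in each PBS tumour. Bcl2l11 at 5.47 ± 0.58, Bbc3 at 5.45 ± 0.58 and Bcl2 at 4.68 ± 0.33 were the lowest. They overlapped with one another but not with Bcl2l1. In tretinoin+ICT tumours the order was different. The Bcl2a1 genes moved up, Bak1 lay above Bax, and Bcl2l1 at 18.7 ± 1.93 lay above Bid at 14.2 ± 1.34. Mcl1 was at 171 ± 32.5 (n = 10), Bcl2a1d at 134 ± 46.3, Bak1 at 86.1 ± 11.8 and Bcl2a1b at 64.9 ± 22.9, above Bax at 51.6 ± 5.55. Mcl1 made up 34.3% ± 1.67 of the summed per-length level of the 10 members in PBS tumours and 30.7% ± 2.13 in tretinoin+ICT tumours.

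**Figure D1:**
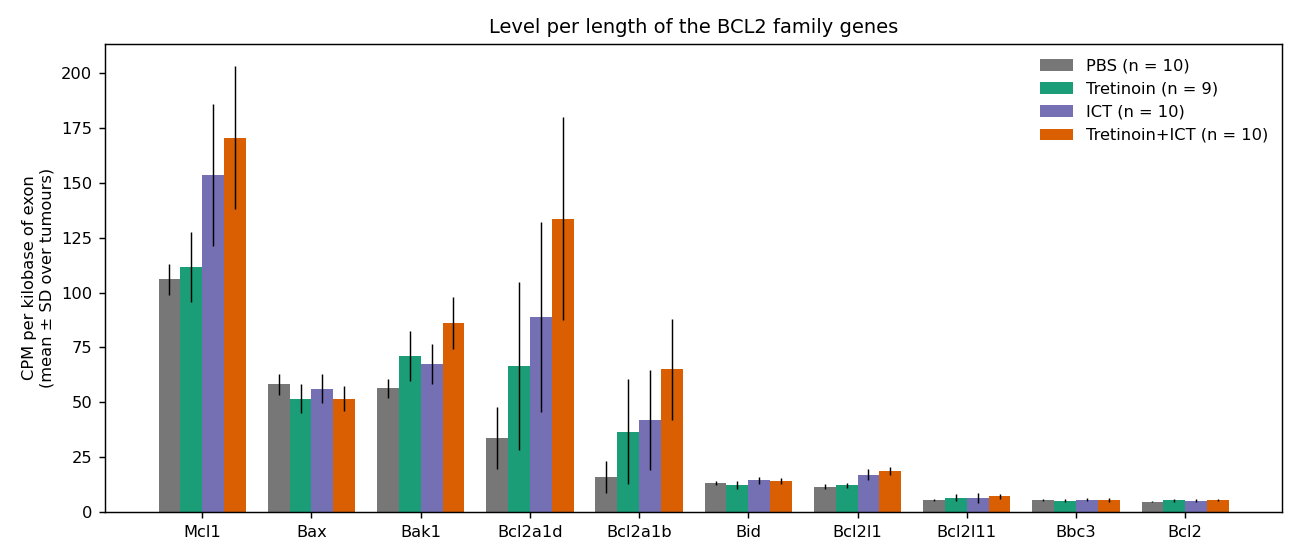
Mean CPM per kilobase of exon of each BCL2 family gene, in the order of the PBS group, with bars for the 4 treatment groups and SD over tumours as error bars. Mcl1 was highest in all 4 groups, and Bcl2a1d went from 33.8 in PBS to 134 in tretinoin+ICT tumours.

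The summed per-length level of the 5 pro-survival genes was 172 ± 28.6 in PBS, 232 ± 78.5 in tretinoin, 306 ± 96.4 in ICT and 393 ± 101.1 in tretinoin+ICT tumours. That of the 3 BH3-only genes was 24.0 ± 1.06, 23.9 ± 2.41, 26.3 ± 2.88 and 26.5 ± 1.998 in the same order. That of Bax and Bak1 together was 115 ± 6.51, 123 ± 11.4, 123 ± 12.5 and 138 ± 12.5. These sums describe the groups and were not tested, and the first rests largely on Mcl1 and the 2 Bcl2a1 genes.

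Bcl2a1b, Bcl2a1d and the effector Bak1 rose with each of the 3 treatments against PBS, Mcl1 and Bcl2l1 with ICT and with tretinoin+ICT, and all 5 survival genes with tretinoin+ICT. Bax fell with tretinoin+ICT, and Bid and Bbc3 passed in no comparison. A gene passed the test at a Benjamini-Hochberg adjusted p below 0.05 over all genes tested (edgeR quasi-likelihood test); the study also asked for a log2 fold change of at least 1, and the number past that is given too. Against PBS, tretinoin gave 4 of 10 members higher (Bcl2, Bcl2a1b, Bcl2a1d and Bak1), where 11.5% of all 14340 genes tested were higher, and none lower, where 8.95% were. ICT gave 5 higher (Bcl2l1, Mcl1, Bcl2a1b, Bcl2a1d and Bak1), against 14.1% of genes higher and 7.15% lower. Tretinoin+ICT gave 7 higher, all 5 survival genes with Bcl2l11 and Bak1, and 1 lower, Bax, against 25.7% and 24.5% of genes.

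The number of members that also reached the study's fold minimum was 1 for tretinoin (Bcl2a1b, background 1.49% of genes), 2 for ICT (Bcl2a1b and Bcl2a1d, background 2.28%) and the same 2 for tretinoin+ICT (background 5.45%). These 3 comparisons share the PBS tumours. Between treated groups, tretinoin+ICT had 1 member higher than ICT alone, Bak1, where 1.57% of genes were higher and 0.422% lower. Compared with tretinoin alone it had 4 members higher (Bcl2l1, Mcl1, Bcl2a1d and Bak1), against 12.3% of genes higher and 9.01% lower, and 1 of these, Bcl2a1d, reached the fold minimum, as 1.87% of genes did. The median log2 fold change of the 10 members was 0.12 for tretinoin, 0.24 for ICT and 0.50 for tretinoin+ICT against PBS, where the medians of all genes tested were 0.0079, -0.02 and -0.01. It was 0.15 for tretinoin+ICT against ICT and 0.24 against tretinoin, with medians of all genes of -0.0049 and -0.0044. Whether tretinoin acted differently with and without ICT was tested as an interaction over all 39 tumours. None of the 10 members passed in it, at unadjusted p below 0.05 either, and 0.307% of genes passed in either direction.

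**Figure D2:**
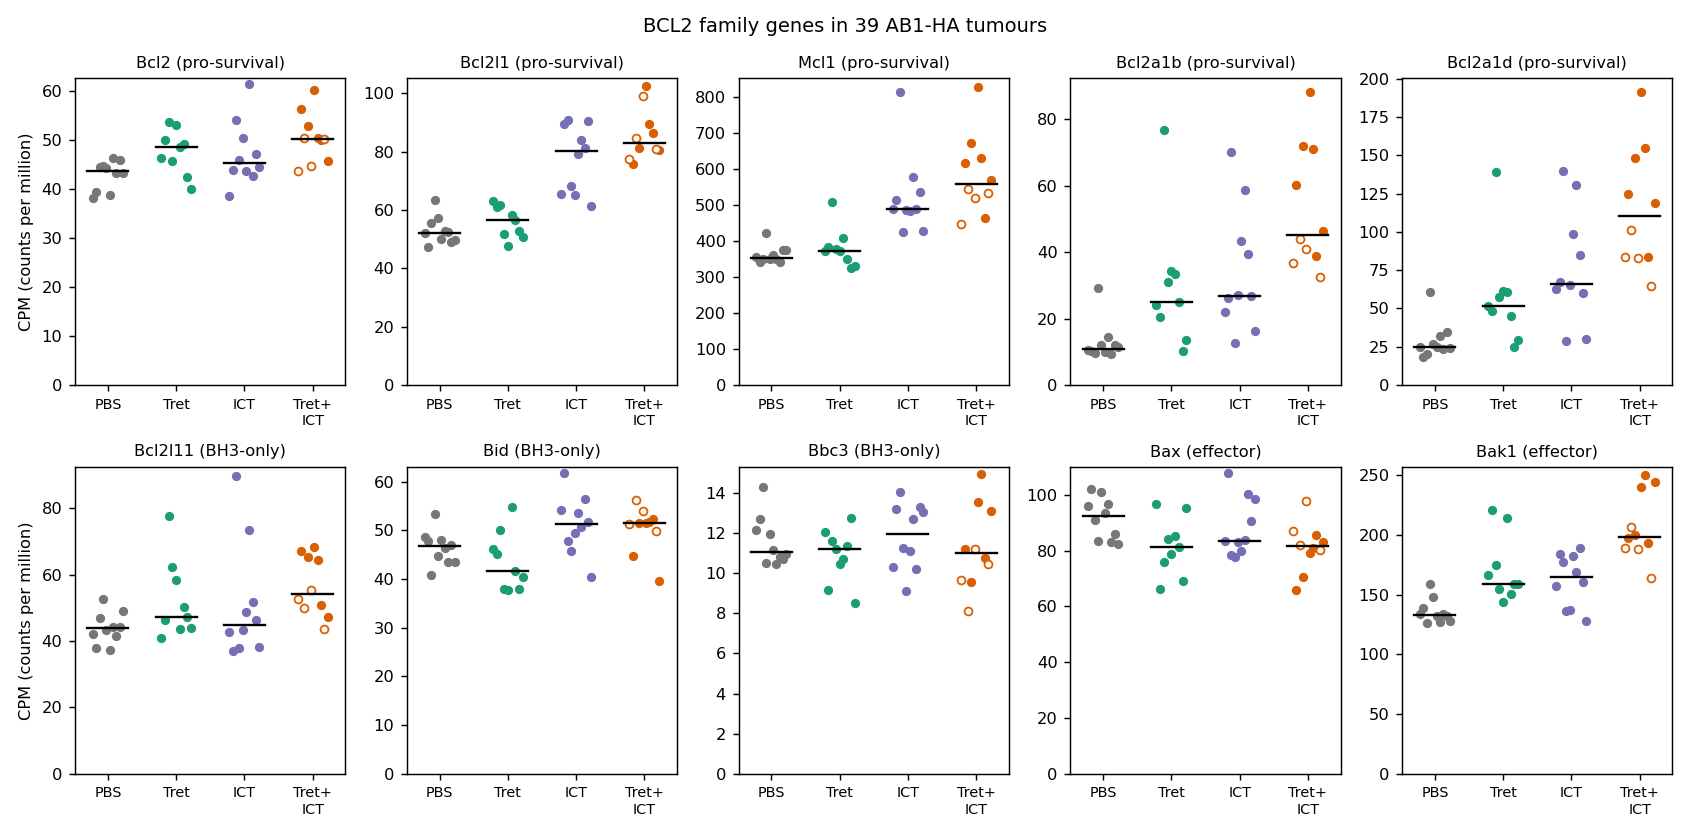
CPM of the 10 BCL2 family genes in each of the 39 tumours (points), with the group median as a line and each axis starting at 0. Open points are the 4 tretinoin+ICT tumours of non-responders, and the Bcl2a1b, Bcl2a1d, Bcl2l1, Mcl1 and Bak1 values of all tretinoin+ICT tumours lie above those of all PBS tumours. In this comparison 25.7% of all genes tested were higher by the test, and the share lying wholly apart was not computed.

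Bcl2a1b encodes an A1 protein, a short-lived survival factor. Its level was 9.34, 10.9 and 29.3 CPM (lowest, median and highest) in PBS tumours, 10.2, 24.9 and 76.8 CPM in tretinoin, 12.6, 26.9 and 70.0 CPM in ICT and 32.4, 45.1 and 88.3 CPM in tretinoin+ICT tumours. All tretinoin+ICT tumours were above all PBS tumours, and the tretinoin and ICT groups overlapped with PBS. How many of all genes lie apart in this way was not computed, here or for the members below. In PBS, PBS replicate 4 was far above the rest, whose highest value was 14.4 CPM, and in the tretinoin group Tretinoin replicate 3 was far above the next at 34.2 CPM. Against PBS the gene rose 2.34-fold with tretinoin (log2 fold change 1.22 ± 0.32 SE, adjusted p = 0.0120), 2.67-fold with ICT (1.42 ± 0.29, adjusted p = 0.00415) and 4.16-fold with tretinoin+ICT (2.05 ± 0.23, adjusted p = 1.66e-06). Between tretinoin+ICT and ICT the log2 difference was 0.63 ± 0.28 (adjusted p = 0.241), and between tretinoin+ICT and tretinoin it was 0.83 ± 0.30 (adjusted p = 0.0567). The last of these passed without Tretinoin replicate 3, at 1.15 (adjusted p = 0.00335).

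Bcl2a1d showed the same order of groups at higher levels. It was at 18.6, 25.0 and 60.8 CPM in PBS (lowest, median and highest), 24.7, 51.4 and 139 CPM in tretinoin, 28.96, 66.2 and 140 CPM in ICT and 64.4, 110 and 192 CPM in tretinoin+ICT tumours. Again each tretinoin+ICT tumour exceeded each PBS tumour, 7 of the 10 ICT tumours did, and 2 of the 9 tretinoin tumours did. It rose 1.99-fold with tretinoin (log2 fold change 0.99 ± 0.28 SE, adjusted p = 0.0199), 2.65-fold with ICT (1.41 ± 0.28, adjusted p = 0.00336) and 4.00-fold with tretinoin+ICT (2.001 ± 0.23, adjusted p = 1.99e-06). Tretinoin+ICT was 2.01-fold above tretinoin alone (1.01 ± 0.28, adjusted p = 0.0176), and its difference from ICT alone was 0.59 ± 0.27 on the log2 scale (adjusted p = 0.256).

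With the counts of the Bcl2a1 copies summed into 1 feature before the fit, the log2 fold changes against PBS were 1.03 for tretinoin (adjusted p = 0.0188), 1.41 for ICT (adjusted p = 0.00362) and 2.01 for tretinoin+ICT (adjusted p = 1.85e-06). Summed, the copies also passed between tretinoin+ICT and tretinoin (0.98, adjusted p = 0.0210) but not between tretinoin+ICT and ICT (0.60, adjusted p = 0.254). In this fit the division of reads between the copies plays no part. ICT replicates 3 and 7 held the highest Bcl2a1 values of the ICT group. They were picked for standing apart in immune genes, so leaving them out lowers the ICT values of such genes. Calls gained that way follow in part from the choice and give no independent support. Without both of them 4 members passed between tretinoin+ICT and ICT (Bcl2a1b at 0.99, Bcl2a1d at 0.89, Bcl2l11 at 0.39 and Bak1 at 0.38 on the log2 scale, adjusted p = 0.0177, 0.0277, 0.0162 and 0.0166), where 9.58% of genes were then higher. Without either one alone, 1 member passed.

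More leukocyte genes passed in the groups given ICT than with tretinoin alone. Of 5 pan-leukocyte genes 1 passed with tretinoin, 4 with ICT and 5 with tretinoin+ICT against PBS, all upward. Over all genes tested 11.5%, 14.1% and 25.7% were higher in these comparisons. With tretinoin the median log2 fold change was 0.31 for pan-leukocyte and -0.17 for neutrophil genes. It was 0.45 for macrophage and 0.50 for monocyte genes. The summed level of the 5 pan-leukocyte genes was 736 to 1341 CPM in PBS and 779 to 1686 CPM in tretinoin tumours. It was 787 to 2434 CPM in ICT and 1064 to 2334 CPM in tretinoin+ICT tumours, and none of the 5 was at 0. Neutrophil genes (6 tested) had 0, 6 and 6 higher in the same order, with Ly6g at a median below 1 CPM in all groups, macrophage genes (7 tested) had 4, 7 and 7, and monocyte genes (4 tested) had 2, 4 and 4. In whole tumours, more cells of a type and more RNA per cell cannot be told apart, and the part of leukocyte numbers in the Bcl2a1 results was not tested.

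Mcl1, a survival protein with a very short half-life, was raised by ICT and not detectably by tretinoin. Its lowest, median and highest values were 341, 353 and 422 CPM in PBS, 327, 372 and 508 CPM in tretinoin, 426, 489 and 813 CPM in ICT and 447, 558 and 827 CPM in tretinoin+ICT tumours. All ICT and all tretinoin+ICT tumours were above all PBS tumours, whereas 1 of 9 tretinoin tumours was, Tretinoin replicate 3. Against PBS the log2 fold change was 0.08 ± 0.07 SE with tretinoin (adjusted p = 0.415), 0.54 ± 0.09 with ICT (adjusted p = 0.000867) and 0.70 ± 0.09 with tretinoin+ICT (adjusted p = 3.11e-06). Tretinoin+ICT exceeded tretinoin alone by 0.62 ± 0.11 (adjusted p = 0.00103), and its difference from ICT alone was 0.15 ± 0.12 (adjusted p = 0.474).

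Bcl2l1 passed in the same comparisons as Mcl1. It lay at 47.2, 52.1 and 63.3 CPM in PBS (lowest, median and highest), 47.5, 56.5 and 62.9 CPM in tretinoin, 61.4, 80.3 and 90.8 CPM in ICT and 75.8, 82.9 and 102 CPM in tretinoin+ICT tumours. The tretinoin+ICT tumours were all above both the PBS and the tretinoin tumours, and 9 of 10 ICT tumours were above all PBS tumours. The log2 fold change against PBS was 0.09 ± 0.06 SE with tretinoin (adjusted p = 0.322), 0.55 ± 0.08 with ICT (adjusted p = 0.000146) and 0.71 ± 0.06 with tretinoin+ICT (adjusted p = 4.25e-08), a 1.63-fold rise. Tretinoin+ICT exceeded tretinoin alone 1.54-fold (0.62 ± 0.07, adjusted p = 2.07e-05) and differed from ICT alone by 0.15 ± 0.08 on the log2 scale (adjusted p = 0.333). This gene passed against PBS with tretinoin+ICT in each of the 4 pairs of name series, with ICT in 2 of 4 and with tretinoin in 0 of 4.

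Bcl2, the founding survival gene of the family, changed little. Its lowest, median and highest values were 38.2, 43.8 and 46.3 CPM in PBS, 40.1, 48.7 and 53.7 CPM in tretinoin, 38.6, 45.3 and 61.5 CPM in ICT and 43.8, 50.3 and 60.2 CPM in tretinoin+ICT tumours, and all groups overlapped. It rose 1.19-fold with tretinoin+ICT (log2 fold change 0.25 ± 0.06 SE, adjusted p = 0.00152). With tretinoin alone the log2 value was 0.16 ± 0.06 (adjusted p = 0.0470), a call that held in 4 of 9 alternatives (adjusted p 0.0416 to 0.114) and in 0 of the 4 pairs of name series, and that ended, among others, without Tretinoin replicate 3 (adjusted p = 0.0992). With ICT it was 0.14 ± 0.07 (adjusted p = 0.136). Of 8 T cell genes, 0 passed with tretinoin and 1, Lck, passed with tretinoin+ICT against PBS. Over all genes 11.5% and 25.7% were higher. The summed T cell level was 67.6 to 148 CPM in PBS and 74.1 to 161 CPM in tretinoin+ICT tumours.

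**Figure D3:**
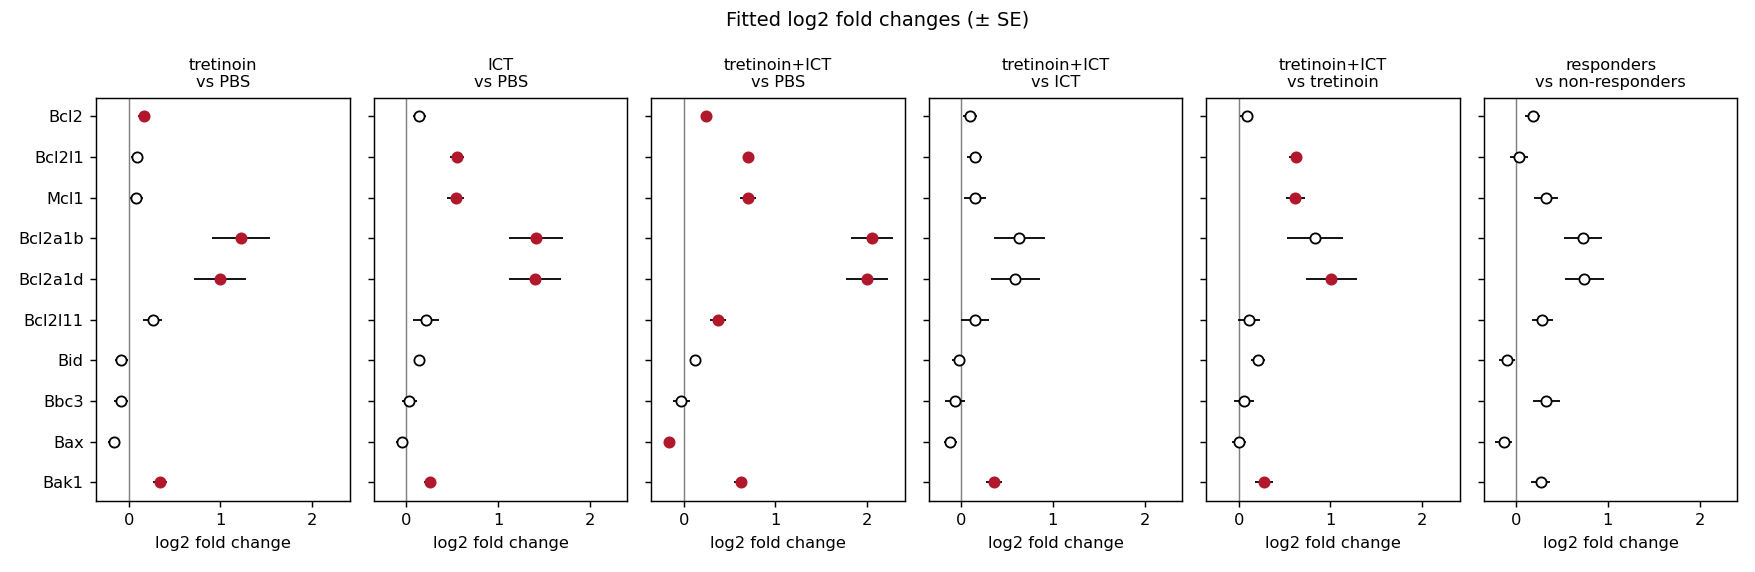
Fitted log2 fold change (points) and SE (lines) of each BCL2 family gene in 5 comparisons of treatment groups and in responders against non-responders, on 1 shared axis. Filled points passed at adjusted p below 0.05, and the Bcl2a1 pair reached 2.05 and 2.001 with tretinoin+ICT against PBS while no point passed in the last panel.

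Among the BH3-only genes, Bcl2l11 passed in 1 of the 5 treatment comparisons and Bid and Bbc3 in none. Bcl2l11 encodes BIM, which binds all of the survival proteins. It was at 37.3, 43.8 and 52.5 CPM in PBS (lowest, median and highest), 40.8, 47.3 and 77.7 CPM in tretinoin, 37.1, 44.8 and 89.7 CPM in ICT and 43.7, 54.04 and 68.4 CPM in tretinoin+ICT tumours. All groups overlapped, with 6 of 10 tretinoin+ICT tumours above the highest PBS tumour. The rise with tretinoin+ICT was 1.297-fold (log2 fold change 0.38 ± 0.09 SE, adjusted p = 0.00116). With tretinoin the value was 0.26 ± 0.10 (adjusted p = 0.0769). It passed in 1 of 9 alternatives, without PBS replicate 4 (adjusted p = 0.0485). Without Tretinoin replicate 3 it was 0.17 (adjusted p = 0.160). With ICT the value was 0.22 ± 0.14 (adjusted p = 0.282).

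Bid links death receptors to mitochondria after caspase-8 cuts it. Its medians were 46.7 CPM in PBS, 41.7 in tretinoin, 51.2 in ICT and 51.5 CPM in tretinoin+ICT tumours, within a range of 37.7 to 61.8 CPM over all 39. The log2 differences from PBS were -0.08 ± 0.07 with tretinoin, 0.14 ± 0.06 with ICT and 0.13 ± 0.06 with tretinoin+ICT, and the adjusted p values were 0.438, 0.0993 and 0.0752. Without PBS replicate 4 the last was 0.15 and passed (adjusted p = 0.0358). Of 8 alternatives 2 passed, and both are this fit. Bbc3, a p53 target that encodes PUMA, had medians of 11.1, 11.2, 12.0 and 11.0 CPM in PBS, tretinoin, ICT and tretinoin+ICT tumours, within 8.12 to 14.9 CPM over all. Its log2 differences from PBS were -0.08 ± 0.08, 0.03 ± 0.08 and -0.03 ± 0.10, with adjusted p = 0.487, 0.792 and 0.841. With these standard errors, shifts of Bbc3 as large as those of Mcl1 or Bcl2l1 with ICT would lie several SE from 0, whereas small ones were not detectable.

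The effectors went in opposite directions with tretinoin+ICT against PBS, the only comparison in which Bax passed. Bak1 was the member that passed in all 5 treatment comparisons. Its lowest, median and highest values were 126, 133 and 159 CPM in PBS, 144, 159 and 221 CPM in tretinoin, 128, 165 and 189 CPM in ICT and 164, 199 and 251 CPM in tretinoin+ICT tumours. The tretinoin+ICT tumours were all above the PBS tumours, and the other groups overlapped with PBS. The log2 fold change against PBS was 0.35 ± 0.08 SE with tretinoin (adjusted p = 0.00356), 0.26 ± 0.07 with ICT (adjusted p = 0.0133) and 0.62 ± 0.07 with tretinoin+ICT (adjusted p = 1.14e-06), a 1.54-fold rise. Tretinoin+ICT exceeded ICT 1.28-fold (0.35 ± 0.09, adjusted p = 0.0330), with 7 of its 10 tumours above the highest ICT tumour, and exceeded tretinoin 1.21-fold (0.28 ± 0.10, adjusted p = 0.0451). In the 4 pairs of name series the rise over ICT passed in 0, at 0.24 to 0.47, and the rise over tretinoin in 0, at 0.19 to 0.36. The latter also missed the threshold with no count filter (adjusted p = 0.0547).

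Bax, the other effector, was lower with tretinoin+ICT. It was at 82.2, 92.3 and 102 CPM in PBS (lowest, median and highest), 66.3, 81.4 and 96.7 CPM in tretinoin, 77.7, 83.6 and 108 CPM in ICT and 66.1, 81.6 and 98.0 CPM in tretinoin+ICT tumours. The groups overlapped, and 6 of 10 tretinoin+ICT tumours were below the lowest PBS tumour. The log2 fold change against PBS was -0.16 ± 0.06 SE with tretinoin+ICT (adjusted p = 0.0278), -0.16 ± 0.07 with tretinoin (adjusted p = 0.0840) and -0.05 ± 0.06 with ICT (adjusted p = 0.604). Tretinoin+ICT differed from ICT alone by -0.12 ± 0.07 (adjusted p = 0.353) and from tretinoin alone by 0.0027 ± 0.07 (adjusted p = 0.982). The fall with tretinoin+ICT passed in each of 8 alternative settings (adjusted p 0.016 to 0.048) and in 1 of the 4 pairs of name series. Of these settings, leaving out tumours that stand apart and leaving out PBS replicate 4 are the same fit. Cell cycle genes fell as well, 4 of 5 with tretinoin+ICT and 2 of 5 with tretinoin, where 24.5% and 8.95% of all genes were lower. Their summed level was 1576 to 1822 CPM in PBS and 1071 to 1677 CPM in tretinoin+ICT tumours. The part of cell cycle genes in the Bax result was not tested.

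Within the tretinoin+ICT group, tumours of responders were compared with those of non-responders. The Bcl2a1 genes, Mcl1 and Bak1 had higher medians in responders, but no member passed. edgeR called none of the 14604 genes tested (0.0%), with 3302 genes at unadjusted p below 0.05, 6 members among them, while DESeq2 called 6.74% of its 12818 genes higher, and 2 members, Bcl2a1b and Bcl2a1d. Bcl2a1b was at 36.7, 43.9, 40.9 and 32.4 CPM in the 4 non-responder tumours and at 38.7, 65.6 and 88.3 CPM (lowest, median and highest) in the 6 responder tumours. Bcl2a1d was at 83.9, 101.3, 82.8 and 64.4 CPM in non-responders and at 83.8, 137 and 192 CPM in responders. For both genes 5 of 6 responder tumours were above all non-responder tumours, and the exception was Tretinoin+ICT replicate 8. The log2 differences were 0.73 ± 0.21 SE for Bcl2a1b (adjusted p = 0.0964) and 0.74 ± 0.21 for Bcl2a1d (adjusted p = 0.0934).

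DESeq2 gave 0.72 (adjusted p = 0.0143) and 0.73 (adjusted p = 0.0105). Without Tretinoin+ICT replicate 8 edgeR also called both genes, at 0.81 (adjusted p = 0.0176) and 0.83 (adjusted p = 0.0139), and 6.68% of genes were then higher. Over all 16 alternatives the adjusted p ran from 0.0143 to 0.268 for Bcl2a1b and from 0.0105 to 0.266 for Bcl2a1d, so these calls depend on the tool and on 1 tumour. The study, which used DESeq2, listed Bcl2a1d among the genes higher in responders. Its methods ask for a log fold change of at least 1, and the DESeq2 value of 0.73 found here lies below that. Mcl1 was at 447, 546, 521 and 534 CPM in non-responders and at 465, 624 and 827 CPM in responders, with a log2 difference of 0.33 ± 0.14 (adjusted p = 0.185). Bak1 was at 189, 206, 188 and 164 CPM in non-responders and at 193, 220 and 251 CPM in responders (0.27 ± 0.10, adjusted p = 0.157). Bcl2l11 was at 52.6, 49.9, 55.5 and 43.7 CPM in non-responders and at 47.3, 64.8 and 68.4 CPM in responders (0.29 ± 0.12, adjusted p = 0.182).

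For the remaining members the 2 response groups also overlapped. Bcl2 was at 43.8, 50.4, 44.6 and 50.3 CPM in non-responders and 45.7, 51.7 and 60.2 CPM in responders (0.18 ± 0.08, adjusted p = 0.234). Bbc3 was at 9.69, 8.12, 11.2 and 10.5 CPM in non-responders and 9.55, 12.2 and 14.9 CPM in responders (0.33 ± 0.15, adjusted p = 0.204). The log2 differences of Bcl2l1, Bid and Bax were 0.03 ± 0.10, -0.10 ± 0.09 and -0.14 ± 0.09, with adjusted p = 0.876, 0.551 and 0.383. With name series as a block the Bcl2a1b difference was 0.81 (adjusted p = 0.129) and no member passed. The summed leukocyte, T cell and macrophage genes had higher medians in responders as well, with no gene called. The summed leukocyte level was 1064 to 1737 CPM in non-responders and 1294 to 2334 CPM in responders. For T cell genes it was 74.1 to 99.5 and 82.5 to 161 CPM, so both overlapped. The summed macrophage level was 2939 to 3477 CPM in non-responders and 3644 to 4227 CPM in responders. How many of all genes lie apart between these few tumours was not computed. The part of these cells in the differences above was not tested.

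The other genes of the family were read from a list of 16, of which 11 were tested. Against PBS, 2 were higher and 1 lower with tretinoin, 4 and 0 with ICT, and 5 and 3 with tretinoin+ICT. Over all genes tested, the shares higher and lower were 11.5% and 8.95% with tretinoin, 14.1% and 7.15% with ICT, and 25.7% and 24.5% with tretinoin+ICT, and the counts of this and the following lists are to be read against them. The median log2 fold changes of the 11 were 0.11, -0.0022 and 0.19. Bcl2a1a, the third copy, rose by 0.97, 1.41 and 2.01 on the log2 scale in these comparisons (adjusted p = 0.0223, 0.00348 and 1.99e-06), and Bcl2a1c was near 0 in all tumours (at most 0.228 CPM). Bnip3, a BH3-like protein of mitochondrial clearance that low oxygen induces, rose by 1.21 ± 0.20 SE with ICT (adjusted p = 0.000904) and by 1.46 ± 0.21 with tretinoin+ICT (adjusted p = 2.25e-05). Bnip3l, its relative, rose by 0.28 and 0.44 (adjusted p = 0.0130 and 0.000296). The BH3-only gene Bmf rose with tretinoin (0.42 ± 0.09, adjusted p = 0.00258), where Bcl2l11 did not pass. Bok, an effector-like relative of Bax and Bak1, was lower with tretinoin (-0.31, adjusted p = 0.0463) and with tretinoin+ICT (-0.53, adjusted p = 0.000758). Between tretinoin+ICT and tretinoin 3 of the 11 were higher and 1, Bmf, was lower (-0.24, adjusted p = 0.0485), and between tretinoin+ICT and ICT none passed.

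Downstream of the effectors, 13 of 14 apoptosome, caspase and inhibitor genes were tested. Against PBS, 1 was higher and 1 lower with tretinoin, 3 and 0 with ICT, and 6 and 3 with tretinoin+ICT, with medians of -0.0092, 0.05 and 0.08. The counts with tretinoin and the 3 lower with tretinoin+ICT were near the shares over all genes. Apaf1, the scaffold of the apoptosome, was higher with tretinoin (0.12, adjusted p = 0.0437) and Birc5 lower (-0.29, adjusted p = 0.0035). The inhibitors Birc2 and Birc3 rose with ICT (0.47 and 0.54, adjusted p = 0.00832 and 0.0269), as did the nuclease gene Endog (0.68, adjusted p = 0.0292). With tretinoin+ICT, Casp6 rose by 0.48 (adjusted p = 0.000259) and Aifm1 fell by 0.32 (adjusted p = 3.65e-05). Upstream, 8 of 12 death receptor genes were tested, with 1 higher and 1 lower with tretinoin, 5 and 0 with ICT, and 6 and 0 with tretinoin+ICT, and medians of 0.17, 0.28 and 0.38. Tnfsf10, which encodes the death ligand TRAIL, rose by 0.93, 0.70 and 1.27 in these comparisons (adjusted p = 0.0264, 0.0401 and 9.09e-06). Casp8, whose product cuts Bid, was lower with tretinoin (-0.10, adjusted p = 0.0334) and higher with ICT (0.18, adjusted p = 0.00271), while Bid itself passed in neither.

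Genes that share regulators with the members, or regulate them, were read in 3 lists, and Birc3 and Cflar stand in 2 lists each. Of 8 NF-kB targets tested, 1 was higher with tretinoin, 6 with ICT and 6 with tretinoin+ICT against PBS, and none was lower, with medians of 0.12, 0.33 and 0.45. The count with tretinoin was near the 11.5% of all genes. Tnfaip3 rose by 0.90 (adjusted p = 7.68e-05), 0.96 (adjusted p = 0.00429) and 1.16 (adjusted p = 1.76e-06), and Nfkb1 by 0.37 with ICT and 0.52 with tretinoin+ICT (adjusted p = 0.000722 and 2.09e-06). Of 10 genes of the p53 pathway, Trp53 itself and 9 of its targets, 0 were higher and 1 lower with tretinoin, 1 and 4 with ICT, and 1 and 7 with tretinoin+ICT, with medians of -0.13, -0.13 and -0.26. The 1 lower with tretinoin was near the 8.95% of all genes, and 24.5% of all genes were lower with tretinoin+ICT. The riser with tretinoin+ICT was Cdkn1a (0.42 ± 0.08, adjusted p = 0.00039), which many other signals induce too, and Eda2r, Zmat3 and Aen were lower (-0.67, -0.55 and -0.50, adjusted p = 1.26e-05, 5.91e-05 and 8.16e-05). Of 9 regulators of BH3-only genes tested, 1 was higher with tretinoin, 5 with ICT, and 6 higher and 1 lower with tretinoin+ICT, with medians of 0.10, 0.31 and 0.48. Foxo3, a transcription factor of Bcl2l11 and Bbc3, rose by 0.14, 0.34 and 0.48 (adjusted p = 0.0476, 0.000281 and 1.44e-07), and Tsc22d3, a glucocorticoid-induced gene, by 1.61 with ICT (adjusted p = 1.78e-06).

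Between tretinoin+ICT and tretinoin these lists gave 4 higher and 0 lower (apoptosome and caspase), 3 and 0 (death receptor), 5 and 0 (NF-kB targets), 1 and 4 (p53 pathway) and 3 and 1 (regulators of BH3-only genes). None of their genes passed between tretinoin+ICT and ICT, between response groups or in the interaction. The other marker lists are given for tretinoin+ICT against PBS. NK cell genes had 4 of 4 higher, dendritic cell genes 2 of 6, mast cell genes 1 of 2, B cell genes 1 of 5, skin genes 2 of 3, endothelial genes 1 of 5 with 2 lower, and tumour genes 3 of 5 with 1 lower, while 0 of 5 skeletal muscle and 0 of 4 adipocyte genes passed. Their summed levels in the PBS and the tretinoin+ICT tumours were 20.1 to 46.4 and 34.9 to 86.4 CPM for NK cells, 46.4 to 84.1 and 58.9 to 153 CPM for dendritic cells, and 225 to 273 and 240 to 303 CPM for endothelium. For skin they were 1.53 to 10.5 and 1.22 to 66.0 CPM, and for skeletal muscle 339 to 1718 and 471 to 3558 CPM.

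Tumours of 1 treatment also differed among themselves, and 8 pairs of genes were examined for varying together, on log2 CPM centred on treatment group means (n = 39, permutation within groups, p adjusted over the 8 pairs). Bcl2a1b and Bcl2a1d varied almost as 1 gene (Pearson r = 0.97, permutation p = 1e-05, adjusted 2e-05; Spearman rho = 0.938, permutation p = 1e-05), which shared reads alone can give in part. Bcl2a1d varied with Ptprc, the gene of the pan-leukocyte protein CD45 (r = 0.881, permutation p = 1e-05, adjusted 2e-05; rho = 0.838, permutation p = 1e-05), and so did Bcl2a1b (r = 0.833, rho = 0.789, each with permutation p = 1e-05, adjusted 2e-05). These p values are the smallest that 100000 resamples can give. Bcl2a1b varied with the neutrophil gene S100a8 (r = 0.682, permutation p = 2e-05, adjusted 2.67e-05; rho = 0.631, permutation p = 8e-05, adjusted 0.000128). Bcl2 varied with the T cell gene Cd3e (r = 0.739, rho = 0.678, each with permutation p = 1e-05, adjusted 2e-05).

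Mcl1 and Bcl2l11 varied together (r = 0.753, permutation p = 2e-05, adjusted 2.67e-05; rho = 0.599, permutation p = 0.00023, adjusted 0.000307). Bbc3 and Cdkn1a, both p53 targets, were weakly related (r = 0.403, permutation p = 0.0262, adjusted 0.03; rho = 0.326, permutation p = 0.0644, adjusted 0.0736). Bax and Mdm2, also both p53 targets, were not related detectably (r = 0.0356, permutation p = 0.842; rho = 0.107, permutation p = 0.528). Without the 2 tumours farthest from the median of the first gene, r was 0.969, 0.871, 0.824, 0.687 and 0.667 for the first 5 pairs in the order given, 0.65 for Mcl1 with Bcl2l11, 0.323 for Bbc3 with Cdkn1a and -0.0377 for Bax with Mdm2. Centred on name series instead, r was 0.972, 0.909, 0.874, 0.674, 0.72, 0.778, 0.454 and 0.0429 in the same order.

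**Figure D4:**
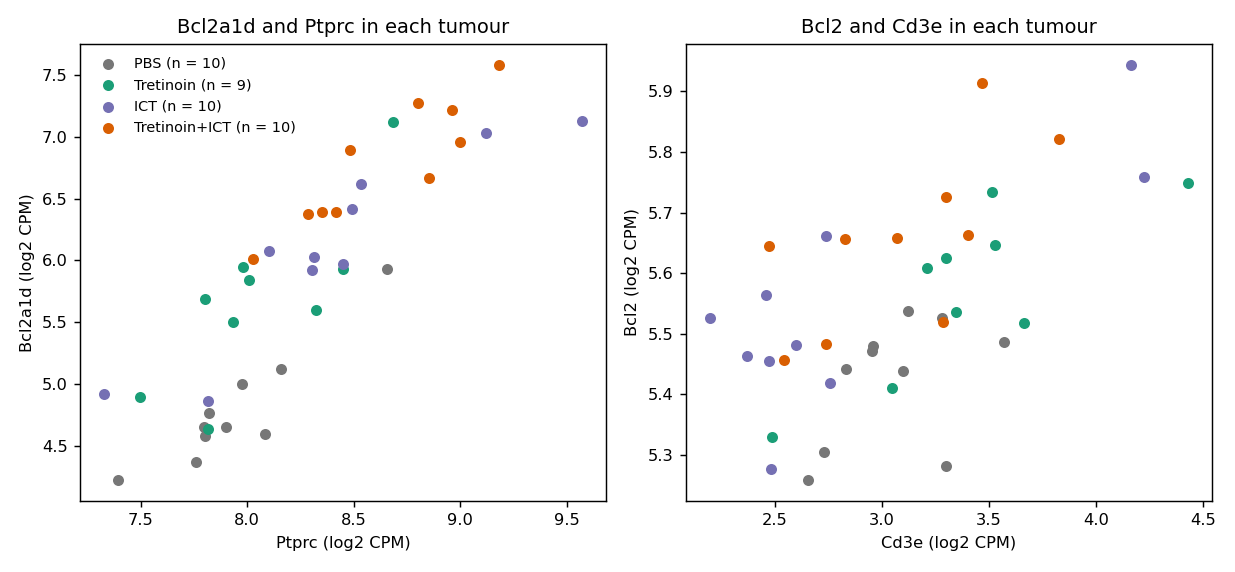
Log2 CPM of Bcl2a1d against Ptprc (left) and of Bcl2 against Cd3e (right), with 1 point per tumour coloured by treatment group. Within groups, after centring on group means, r was 0.881 on the left and 0.739 on the right, and each tretinoin+ICT tumour has a higher Bcl2a1d level than each PBS tumour.

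For each member, the 3 genes most like it among 14959 genes, other members left out, were named by Pearson r over the same 39 centred tumours. For Bcl2 they were Cd28 (r = 0.823), the T cell costimulatory receptor, Gimap8 (0.821) and Gimap3 (0.799), both lymphocyte GTPases. Beside Bcl2a1a, those of Bcl2a1b were the MHC class II genes H2-Eb1 (0.944) and H2-DMb2 (0.942), and those of Bcl2a1d were H2-D1 (0.954) and B2m (0.954), which encode the heavy and light chains of MHC class I. Mcl1 was most like Pla2g7 (0.942), Stx3 (0.936) and Stxbp3 (0.933), and Bcl2l11 most like Slc43a2 (0.913), Tyk2 (0.900) and Arg2 (0.898).

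For Bcl2l1 the values were lower, with Sh3bp2 at 0.737, Nub1 at 0.681 and Pkm at 0.679, and for Bbc3 they were similar, with Rnf44 at 0.694, Snx21 at 0.685 and Sirt2 at 0.669. Bid was most like Slamf9 (0.809), Aida (0.809) and the proteasome gene Psma5 (0.798). Bax was most like Rpl18 (0.859), a ribosomal protein gene, Uqcrc1 (0.826), a subunit of the respiratory chain, and Aprt (0.826). Bak1 was most like Cap1 (0.842), Abhd16a (0.841) and Lgals3bp (0.839). Spearman's rho of these neighbours ran from 0.643 for Sirt2 with Bbc3 to 0.994 for Bcl2a1a with Bcl2a1d. Among the members themselves, Bax was inversely related to Bcl2 (r = -0.437, rho = -0.490) and to Bcl2l11 (r = -0.400, rho = -0.388), given as a description over the 39 tumours.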

How the data were processed

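RNA from 39 whole AB1-HA tumours was sequenced as 100-base single-end reads. The authors aligned reads with HISAT2 (version 2.0.4 in the submitters' processing notes, which also name bcl2fastq 2.20.0.422) to a mouse build the methods name mm11, counted them on genes and deposited raw counts per gene without normalization; strand mode and the handling of reads with several alignments are not given in the sources used here. Samples were grouped by the deposited treatment and response labels, and replicates were numbered in accession order. Of the gene identifiers, 36719 (92.55%) match GENCODE M21 with version, 9 of the 10 members among them, and coordinates and exon lengths come from it (GRCm38).

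The members and lists were chosen with earlier results of these data known. For each comparison, edgeR 4.0.16 (R 4.3.3; TMM, filterByExpr, robust quasi-likelihood test, two-sided) was run on the deposited counts of the tumours compared and p adjusted over all genes tested; the standard error is the absolute log2 fold change over the square root of F. Levels are TMM-scaled CPM over all tumours, and log2 CPM used a prior count of 2. Each tumour came from a separate mouse as far as the labels show. Named genes are the 10 members, up to 4 passing genes with the smallest adjusted p per list and comparison, and the 3 genes most like each member; Bcl2a1c was named after its values were seen. Relations used Python 3.11.15 with numpy 2.4.6. Tested on simulated data, the test called 67 of 100 genes changed by 0.5 and 93 of 100 changed by 1 (log2) for tretinoin against PBS among 14340 genes, with 7 false calls, and 18 and 72 of 100 for responders against non-responders among 14604 genes, with 3 false calls.

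Alternatives were DESeq2 1.42.0, its size factors, no count filter, a minimum of 10 counts in each tumour, 1 fit over all 39 tumours, single pairs of name series, name series as a block, the study's fold minimum, summed Bcl2a1 copies, tumours that stand apart left out, and each tretinoin+ICT tumour left out in turn. Leaving out each tumour that stands apart alone was added after the data were seen. Survival and flow cytometry were not analysed here.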

Additional observations from a re-analysis of the deposited data

Results flagged for a closer look

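Each member was checked in each of the 4 treatment groups and both response groups for a tumour whose distance to its nearest neighbour took an unusually large share of the group's range (Dixon's 95% critical value), 60 sets in all, of which chance would mark about 1 in 20. Of these, 7 were marked, in 3 genes and 3 tumours, and each was the highest value of its group. PBS replicate 4 was highest for Mcl1 at 422 CPM, where the next tumour was at 376, for Bcl2a1b at 29.3 CPM, next 14.4, and for Bcl2a1d at 60.8 CPM, next 34.7. Tretinoin replicate 3 was highest for Mcl1 at 508 CPM, next 409, for Bcl2a1b at 76.8 CPM, next 34.2, and for Bcl2a1d at 139 CPM, next 61.4. ICT replicate 3 was highest for Mcl1 at 813 CPM, where the next, ICT replicate 7, was at 579. Bcl2a1b and Bcl2a1d share reads and are not separate evidence. The 3 tumours are among those already picked from these data for standing apart in immune genes. The response groups are also parts of the tretinoin+ICT group, so the sets are not independent. The number marked is therefore a description and cannot be weighed against 1 in 20.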

How the results depend on the processing

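No value of a member that passed the test changed its direction under any alternative. Of 868 values of single members recomputed, 50 lost and 18 gained the call, with some fits counted under more than 1 setting. The number of members that passed was lower in most single pairs of name series, which hold 4 or 5 tumours a group: for tretinoin against PBS it was 4 with all tumours and 0, 0 and 1 in 3 of the 4 pairs, for ICT against PBS 5 with all tumours and 0, 0 and 2 in 3 of the pairs, for tretinoin+ICT against tretinoin 4 with all tumours and 1 in each of 2 pairs, and for tretinoin+ICT against ICT 1 with all tumours and 0 in each pair; these fits hold fewer samples. With the study's fold minimum the number was 1 for tretinoin, 2 for ICT and 2 for tretinoin+ICT against PBS, 1 for tretinoin+ICT against tretinoin and 0 against ICT. Without ICT replicates 3 and 7 together, tretinoin+ICT against ICT gave 4 members. Those tumours were picked for standing apart in immune genes, so this gain gives no independent support. For responders against non-responders DESeq2 gave 2 members where edgeR gave 0, and leaving out each tumour in turn gave 0 to 2, the 2 without Tretinoin+ICT replicate 8; the cause was not tested. No paired analysis was possible because replicate numbers follow accession order and pair no tumours. Depth limits Bbc3 most, at 135 counts in its lowest tumour, and shared reads limit the Bcl2a1 genes.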
